A study of Homo sapiens with 8 samples.

Results

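Open chromatin of NCI-H295R cells treated with forskolin was set directly against that of cells treated with the EZH2 inhibitor EPZ-6438, using the 2 deposited peak lists and no vehicle list to choose peaks. NCI-H295R is an established human adrenocortical carcinoma line that makes steroids, and ATAC-seq marks open chromatin by where the transposase Tn5 inserts adapters. The comparison covers 4 of the 8 libraries of the series. The forskolin group (FSK) had 2 libraries from cells given vehicle (DMSO) for 48 h and then 10 µM forskolin for 48 h. The EZH2 inhibitor group (EZH2i) had 2 libraries from cells given 62 µM EPZ-6438, the dose the labels call IC-50, for 96 h. The libraries of a group are labelled biological replicates, but each group has 1 peak list, so no value below carries replicate error and no p-value was computed. Drug and exposure time differ together and cannot be told apart.

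Forskolin activates adenylyl cyclase, which makes cAMP; cAMP activates protein kinase A, which phosphorylates CREB. This is the route by which ACTH, through its receptor MC2R, drives steroid synthesis in the adrenal cortex. EZH2 is the histone H3 methyltransferase of Polycomb repressive complex 2, which keeps developmental genes silent. Wnt/β-catenin signalling, which acts through TCF and LEF factors, is active in many adrenocortical carcinomas. AP-1, formed by FOS and JUN proteins, binds distal regulatory elements and is induced by many stimuli, cAMP among them.

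A peak of one list was called private when not 1 bp of it overlapped a peak of the other list, and shared otherwise. The FSK list held 51095 peaks over 35.7 Mb and the EZH2i list 41086 peaks over 31.5 Mb. Of the FSK peaks 15480 were private, 30.3% (Wilson 95% interval 29.9 to 30.7). Of the EZH2i peaks 5715 were private, 13.9% (13.6 to 14.3). Such intervals reflect counting error alone and take each peak as independent. Read depth is unknown, and a longer list leaves fewer private peaks in the other one. Of 20 steroidogenic genes, 12 had a peak within 1 kb of a gene end in both lists and 6 in neither. Over all 19821 protein-coding genes the share with such a peak in both lists was 63.9%, so this count cannot check the cell type label. Among the 12 were CYP17A1 (17α-hydroxylase), NR5A1 (the receptor SF1) and STAR (cholesterol import into mitochondria).

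At equal length the imbalance between the lists was gone. With the 41086 FSK peaks of largest area, the authors' area of significance under a peak, 8737 FSK peaks and 8738 EZH2i peaks were private, 21.3% of each list. Of those 8738 EZH2i peaks, 3023 overlapped one of the smaller FSK peaks that had been cut away. Equal lists must leave nearly equal private counts, so this share measures how much the lists differ, not which treatment opened more. With 20000 peaks each, 3309 peaks of either list were private, 16.5%. With 5000 each, 578 FSK and 580 EZH2i peaks were private, but only 3 and 0 of them were absent from the complete other list. At the top of both lists, then, a private peak was nearly always a peak that stood lower in the other list rather than one missing from it.

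Private peaks were small. Their median area was 304.0 in the FSK list against 781.9 for shared peaks, and 279.4 against 684.7 in the EZH2i list. They were also narrower, at a median of 359 bp against 671 bp (FSK) and 425 bp against 651 bp (EZH2i). In the smallest area decile 71.8% of FSK peaks and 42.5% of EZH2i peaks were private. In the largest decile 3 of 5109 FSK peaks and 0 of 4108 EZH2i peaks were private, and the latter count allows a share of up to 0.0934% by the Wilson interval.

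**Figure D1:**
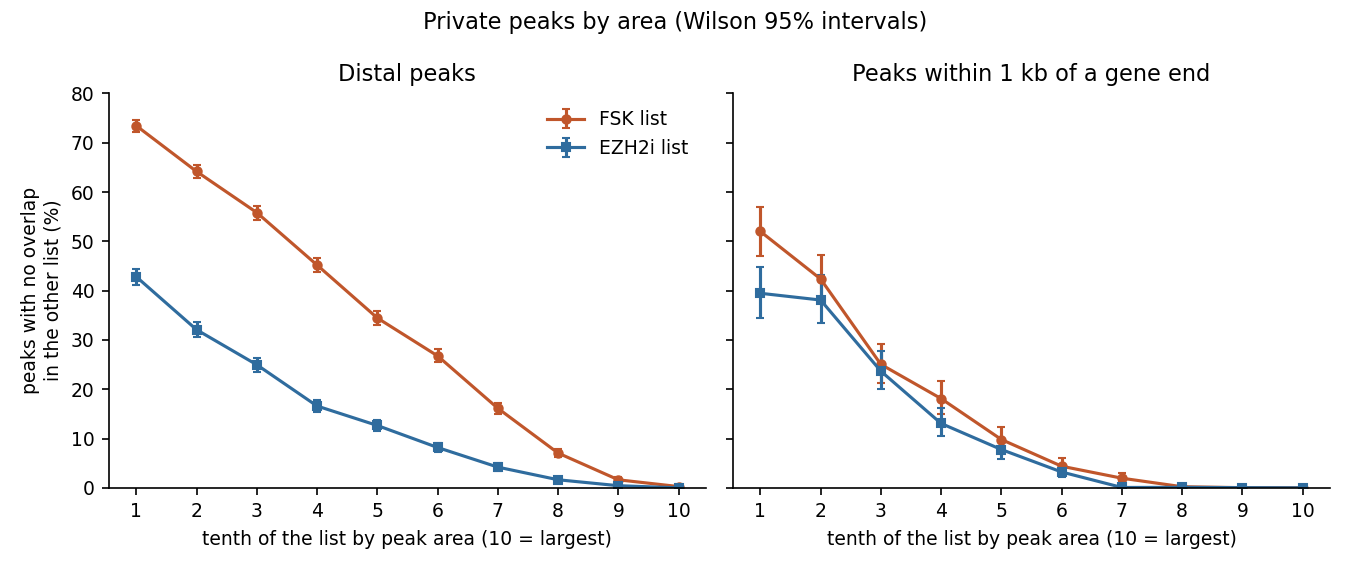
Share of peaks with no overlap in the other list (%, vertical axis) in each area decile of its own list (horizontal axis, 10 = largest), for distal peaks and for peaks within 1 kb of a gene end, with Wilson 95% intervals. The share falls with area in both lists. The FSK curve lies above the EZH2i curve for distal peaks, while near gene ends their intervals overlap in every decile except 1 and 7.

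Private peaks lay mostly away from genes' ends. Peaks no more than 1 kb from where the annotation of a protein-coding gene begins or stops are called gene-end peaks, and the others distal. Gene-end peaks made up 4.61% of FSK-private peaks (4.29 to 4.95) and 9.33% of EZH2i-private peaks (8.60 to 10.1), against 34.2% and 34.0% of shared peaks. Of all distal peaks 38.7% were private in the FSK list and 18.2% in the EZH2i list. The gap between distal and gene-end peaks was 33.1 percentage points in the FSK list and 8.72 points when peaks were compared within area deciles. In the EZH2i list the same gap was 13.9 points and 1.46 points within deciles. Most of the gap thus went with peak area.

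The vehicle and CBP inhibitor lists, which played no part in choosing peaks, describe where private peaks were also found. The vehicle list held 55.9% of FSK-private peaks and 70.7% of EZH2i-private peaks. The list of cells given the CBP inhibitor PRI-724 held 32.6% and 61.3%. In neither list were 5570 FSK-private peaks (36.0%) and 1199 EZH2i-private peaks (21.0%). Vehicle cells were treated for 96 h, as were EZH2i and CBPi cells, so exposure time again goes with the FSK list alone.

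Of the 8 largest FSK-private peaks 2 lay at one locus of chromosome 2, and the other 6 on chromosomes 3, 4, 5, 9 and 10. The FSK-private peaks ranked 1 and 5 by area, chr2:238546530-238550307 (area 3829) and chr2:238541383-238544280 (area 2102), lay 95000 bp and 91123 bp from the nearest end of ASB1, a subunit of a ubiquitin ligase. Beside them, chr2:238534710-238541061 was a shared peak of 6352 bp in the FSK list and of 809 bp in the EZH2i list. All 3 overlapped vehicle peaks. Others among the 8 largest stood at chr10:132363210-132365713 inside LRRC27 (area 2432, in neither the vehicle nor the CBPi list), at chr5:32767879-32768646 inside NPR3, the natriuretic peptide clearance receptor (area 1883), and 77617 bp from PTGER4, a prostaglandin E2 receptor that raises cAMP (area 1899). All 8 were distal.

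The largest EZH2i-private peak, chr13:114044496-114045596 (area 2113), lay inside RASA3, a GTPase-activating protein that restrains RAS and RAP. Next came chr5:945184-946637 (area 1824), 27028 bp from TRIP13, a mitotic checkpoint ATPase. Further down were chr5:10606932-10608308 inside ANKRD33B (area 1776) and chr4:7757031-7758207, 1013 bp from an end of AFAP1, an actin-binding adaptor (area 1746). Each of the 8 largest EZH2i-private peaks overlapped both a vehicle and a CBPi peak. Of the 8 largest FSK-private peaks 7 overlapped a vehicle peak.

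Private peaks were then counted by gene. Each summit was given to the closest protein-coding gene, measured to the gene's ends and up to 100 kb away; of peaks so assigned 25.6% were private in the FSK list and 12.6% in the EZH2i list. The number expected for a gene comes from the private share of its peaks' area decile and class. GRB10, COBL and TNS3, all on chromosome 7, were among the 6 genes with most private peaks in both lists. The genes described next are those with the largest excess of private peaks in 1 list over the other, so their contrast comes from the ranking. RASA3 had 0 private of 55 FSK peaks (18.9 expected) and 21 of 66 EZH2i peaks (7.19 expected). SLC9A3, an epithelial sodium-proton exchanger, had 0 of 6 and 13 of 19. RXRA, the partner of many nuclear receptors, had 4 of 16 FSK peaks private and 15 of 26 EZH2i peaks. NOTCH1 had 1 of 8 and 11 of 18, and FGFR3, a fibroblast growth factor receptor, had 0 of 5 and 9 of 14. For these 5 genes, RASA3 to FGFR3, the EZH2i count was above and the FSK count below the number expected.

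By the same ranking on the FSK side, GRB10 came first with an excess of 11 peaks, and 5 genes with 16 to 21 FSK peaks followed with 8 or 9. NTRK3, a neurotrophin receptor, had 10 private of 17 FSK peaks (5.87 expected) and 1 of 7 EZH2i peaks. MEGF11, SLC2A13 (a proton-linked myo-inositol transporter) and CCDC192 each had 9 FSK-private and 0 EZH2i-private peaks. AEBP2, an accessory subunit of Polycomb repressive complex 2, had 9 of 16 FSK peaks private against 1 of 8. In the FSK list the 6 genes with most private peaks all lay on chromosome 7, while in the EZH2i list RASA3 on chromosome 13 came first. The region of chromosome 7 between 40 and 55 Mb is crowded with peaks. There GRB10, an adaptor that dampens insulin and IGF receptors, had 24 private of 73 FSK peaks (27.8 expected) and 13 of 63 EZH2i peaks (11.3 expected). COBL had 16 of 89 and 15 of 85, and TNS3 14 of 65 and 19 of 70. In the whole region 373 of 1429 FSK peaks were private (500.0 expected) and 289 of 1307 EZH2i peaks (213.3 expected).

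Private peaks of the lists also differed in where they lay along the genome. When 5 Mb windows were ranked by their number of protein-coding genes, 46.4% of distal FSK peaks were private in the gene-poorest quintile (45.2 to 47.6; 39.1% expected from area) and 30.2% in the gene-richest (29.2 to 31.1; 38.4% expected). Distal EZH2i peaks ran the other way, with 16.7% private in the gene-poorest quintile (15.6 to 17.9; 18.9% expected) and 19.2% in the gene-richest (18.3 to 20.2; 17.5% expected). By chromosome, the FSK-private share was lowest on chromosomes 19 (14.9%) and 22 (21.7%), which lay 6.09 and 8.34 points below expectation. On chromosome 22 the EZH2i-private share, 19.4%, was 4.42 points above expectation, and on chromosome 9 it was 3.01 points above.

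Single windows went both ways. The largest FSK excess over expectation was in the window at 40 to 45 Mb of chromosome 12, with 15 genes, where 71 of 133 FSK peaks were private (47.5 expected) and 9 of 73 EZH2i peaks. Second was 120 to 125 Mb of chromosome 7, with 25 genes, at 58 of 136 FSK peaks (40.2 expected) and 14 of 93 EZH2i peaks. On chromosome 2 at 140 to 145 Mb, with 5 genes, 52 of 83 FSK peaks were private and 6 of 36 EZH2i peaks. The largest EZH2i excess was at 135 to 140 Mb of chromosome 9, with 90 genes, where 95 of 317 EZH2i peaks were private (52.7 expected) against 75 of 316 FSK peaks (105 expected). At 0 to 5 Mb of chromosome 5, with 30 genes, 66 of 174 EZH2i peaks were private (30.6 expected). Windows with few genes were among them too: on chromosome 7, 128 of 513 EZH2i peaks were private at 45 to 50 Mb (17 genes, 89.3 expected) and 107 of 450 at 50 to 55 Mb (9 genes, 78.6 expected). GC content of distal peaks was not measured, and its part in this contrast was not tested.

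**Figure D2:**
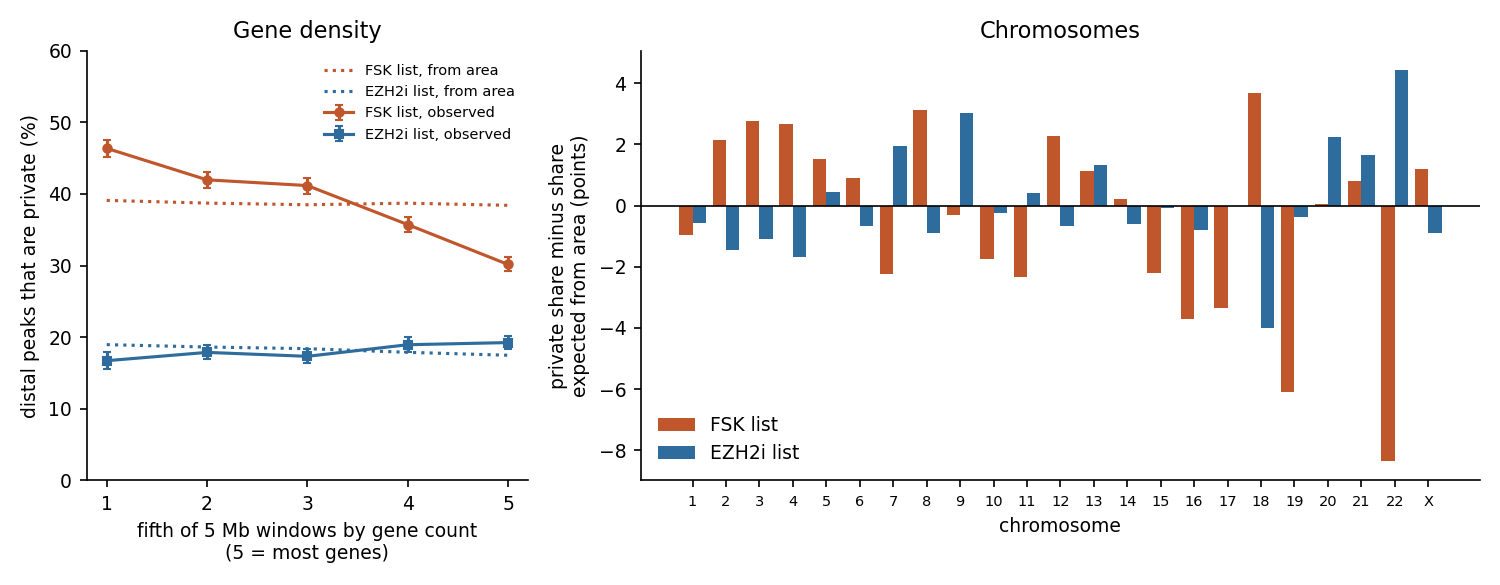
Left, share of distal peaks that are private (%) by quintile of 5 Mb windows ranked by gene count (5 = most genes), with Wilson 95% intervals and, dotted, the share expected from peak area. Right, private share minus the share expected from area (percentage points) by chromosome; FSK bars run lowest on chromosomes 19 and 22, and the EZH2i bar is highest on 22.

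Shared peaks kept much the same order, least so away from gene ends. In 33678 one-to-one pairs, Spearman's rho between the areas was 0.859, across peaks that share their libraries and are not independent. It was 0.967 over 11287 gene-end pairs and 0.721 over 22391 distal pairs, which were not matched for area. With area divided by width the correlation over all pairs was 0.737. Ranks were turned into percentiles among pairs, and a shift is the FSK percentile minus the EZH2i percentile. A shift of 25 points or more towards FSK was seen in 1989 pairs (5.91%) and one as large towards EZH2i in 1670 (4.96%). Among distal pairs these were 1888 and 1373. Among gene-end pairs the balance was opposite, with 101 towards FSK and 297 towards EZH2i. Both sets of percentiles rank the same pairs, so the mean shifts of distal and of gene-end pairs must have opposite signs.

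**Figure D3:**
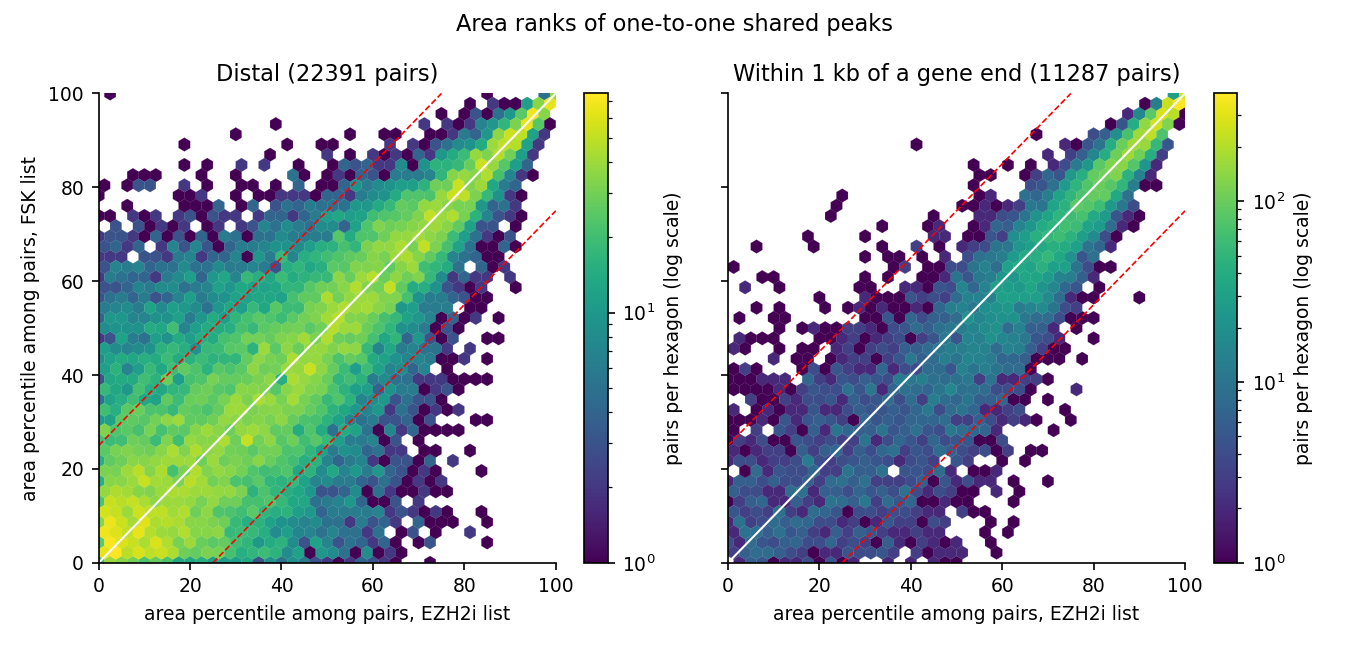
Area percentile among the one-to-one pairs in the FSK list (vertical) against the EZH2i list (horizontal) for distal and gene-end pairs; colour gives the number of pairs per hexagon on a log scale, the white line marks equal rank and the dashed lines a shift of 25 points. Gene-end pairs hug the diagonal, while distal pairs spread widely, most of all among the smaller peaks.

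The largest shift towards FSK was the ASB1-side peak described above, which by area stood at rank 41 of the 33678 pairs in the FSK list and 32847 in the EZH2i list. Next was chr1:48720728-48721903 inside AGBL4 and 6445 bp from BEND5, at rank 6659 against 33067. Ranks 3 and 4 lay on chromosome 5 with no gene end within 100 kb, and ranks 5 and 6 lay near DORIP1 and the olfactory receptor gene OR6V1. Towards EZH2i the largest shift was chr5:1783021-1783432, 15078 bp from MRPL36, a mitochondrial ribosomal protein gene, at rank 32261 in the FSK list and 4798 in the EZH2i list. The second, chr5:957397-957948, lay in the same region of chromosome 5 as the EZH2i-private peak near TRIP13. The others lay inside COBL and ZNF385A, 28242 bp from TBC1D30, and on chromosome 3 with no gene end within 100 kb. The EZH2i peak was the wider one in all 6 pairs, and the FSK peak in all 6 shifted towards FSK; ranked by area divided by width, the COBL pair moved to a shift of 3.21 points, so its shift was one of width.

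Near gene ends the largest shifts towards FSK were at AP1S1 (62.6 points), CRAT (carnitine acetyltransferase, 60.7), DGCR8 (microRNA processing, 54.2), PEX5L and NAXD (53.4 each) and GLI2 (a Hedgehog effector, 52.5). Towards EZH2i they were at THSD7B (-56.9), GALK1 (galactokinase, -56.3), NPC1L1 (a sterol transporter, -54.3) NEFH (a neurofilament protein, -51.9), ABCA13 (-51.5) and KCNK10 (a potassium channel, -49.9).

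Of 19821 protein-coding genes, 12658 had a gene-end peak in both lists and 6443 in neither. In the FSK list only were 363 genes, 1.83% of those tested, and in the EZH2i list only 357, 1.80%. These near-equal counts depended on list length: with 41086 peaks in each list they were 189 and 579. The peak concerned was private for 334 and 330 of them. For the rest it overlapped a peak of the other list that lay more than 1 kb from either end of the gene. The vehicle list had a gene-end peak at 240 of the 363 and at 286 of the 357. These peaks were small, with a median area of 292.8 in each list. On the EZH2i side the 2 largest private ones stood at PRSS23, a serine protease, and ATOH8, a helix-loop-helix factor (areas 1468 and 1233).

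Gene lists were read against the background of all assigned peaks, 25.6% private for FSK and 12.6% for EZH2i, a difference of 13.0 points. The steroidogenic list holds genes of cholesterol uptake and steroid synthesis, and also regulators and markers such as NR5A1, MC2R and INHA. Of its FSK peaks 24 of 73 were private (32.9%) and of its EZH2i peaks 5 of 53 (9.43%). The difference was 23.4 points (Newcombe interval 8.92 to 36.0), which includes the background. At equal list length it was 12.6 points (-2.26 to 26.4) against a background of -2.31. MC2R had 3 FSK peaks, all private, and no EZH2i peak; the one over its start, chr18:13915373-13915807, had area 460.9 and was also in the vehicle list. SCARB1, the HDL receptor that supplies cholesterol, had 8 private of 20 FSK peaks and 2 of 14 EZH2i peaks. CYP11A1, the first enzyme of steroid synthesis, had 4 of 8 and 1 of 5. NR5A1 had 2 of 5 and 0 of 3. STAR had 0 of 3 and 1 of 4. CYP21A2 (21-hydroxylase) had 3 of 4 and 0 of 1, but it has a near-identical pseudogene and its peaks are uncertain.

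Genes of the cAMP pathway did not stand apart as one group. For 25 genes induced by cAMP, 31 of 123 FSK peaks (25.2%) and 6 of 94 EZH2i peaks (6.38%) were private, a difference of 18.8 points (9.14 to 27.8), which includes the background; at equal list length it was 5.22 points. DUSP5, a nuclear phosphatase that inactivates ERK, had 6 of 11 FSK peaks private and 0 of 5 EZH2i peaks, and SGK1, a kinase, had 4 of 5 and 1 of 2. The immediate early genes differed little, with 0 of 4 and 0 of 4 at FOS and at NR4A2, and 1 of 8 and 1 of 8 at NR4A1. Among 33 genes of the cAMP machinery, 47 of 187 FSK peaks (25.1%) and 31 of 158 EZH2i peaks (19.6%) were private, a difference of 5.51 points (-3.41 to 14.1) that became -9.36 at equal length. PDE4B, a phosphodiesterase that breaks down cAMP, had 8 of 10 against 1 of 3. GNAS, the stimulatory G protein subunit, and PRKAR1A, a regulatory subunit of protein kinase A, had a private gene-end peak in the EZH2i list only, at areas 406.4 and 456.9. For AP-1 subunit genes 7 of 51 FSK peaks and 4 of 45 EZH2i peaks were private.

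Wnt targets leaned towards EZH2i. Of their FSK peaks 17 of 87 were private (19.5%; 26.4% expected from area) and of their EZH2i peaks 29 of 99 (29.3%; 12.5% expected). The difference was -9.75 points (-21.6 to 2.74), and this interval lies below the background of 13.0 points. At 13 of the 22 genes the EZH2i-private peaks were more numerous, at 5 the FSK-private ones. NKD2, a feedback inhibitor of Wnt signalling, had 2 private of 7 FSK peaks and 7 of 12 EZH2i peaks. ZNRF3, the ubiquitin ligase that removes Wnt receptors, had 0 of 5 and 4 of 10. AXIN2, a scaffold of the β-catenin destruction complex, had 1 of 4 and 3 of 6, and APCDD1 had 0 of 2 and 2 of 4. SP5, a repressor that acts with TCF factors, had no FSK peak and 2 private EZH2i peaks, and CCND1 (cyclin D1) had 0 of 1 and 2 of 3; at both genes the gene-end peak was in the EZH2i list only. TCF7L2 went the other way with 4 of 11 and 0 of 7, as did LGR5 with 3 of 6 and 0 of 3 and MYC with 3 of 14 and 0 of 11. The private EZH2i peaks at SP5 and CCND1 all overlapped both a vehicle and a CBPi peak. At AXIN2 and NKD2 some of the private EZH2i peaks overlapped a vehicle peak and some did not. With NKD2, the gene with most, left out of both lists, 15 of 80 FSK and 22 of 87 EZH2i peaks were private, a difference of -6.54 points (-18.8 to 6.17). With both lists at 41086 peaks, the Wnt counts were 7 of 73 FSK and 33 of 99 EZH2i peaks, a difference of -23.7 points (-34.6 to -11.4) against -2.31 over all assigned peaks.

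The other lists were read in the same way. For 74 developmental transcription factors, chosen as typical Polycomb targets, 51 of 234 FSK peaks (21.8%) and 28 of 206 EZH2i peaks (13.6%) were private, a difference of 8.20 points (1.01 to 15.2). That interval includes the background of 13.0 points. The direction turned to -0.421 points (-7.46 to 6.55) when peaks were assigned by gene body and 10 kb around it, against the same background. At equal list length the difference was -7.52 points (-15.1 to 0.215), from 14.8% and 22.3%. This interval includes the background at that length, -2.31 points. The gene-end peak was in the EZH2i list only at GSC and LHX1 and in the FSK list only at NEUROD1 and HOXA9. Polycomb genes gave 13 of 71 and 6 of 62, of which AEBP2 made 9 in the FSK list; EZH2 itself had 0 of 3 and 1 of 4. Coactivator genes gave 8 of 42 and 2 of 32. Cell cycle genes had 15 of 69 and 2 of 57, a difference of 18.2 points (6.55 to 29.6), with 5 FSK-private peaks at CCNE1 (cyclin E1) and 5 at E2F7. Genes of cholesterol supply had 24 of 82 and 6 of 63, a difference of 19.7 points (6.66 to 31.5) that became -1.38 at equal length. LSS, which makes lanosterol, had 4 of 7 and 0 of 3, and ABCA1, a cholesterol exporter, 3 of 9 and 0 of 6. The intervals of these last 2 lists include the background of 13.0 points. Stress and p53 genes had 6 of 55 and 4 of 52, and housekeeping genes 12 of 67 and 6 of 60. ERK feedback genes had 19 of 119 and 26 of 116, and 21 of those 26 belonged to RASA3; without that gene the counts were 19 of 64 and 5 of 50. For the IGF list GRB10 held 24 of 40 and 13 of 21. Among channels and receptors that control aldosterone, 20 of 70 FSK and 6 of 54 EZH2i peaks were private; over their 43 pairs the median shift was 3.13 points towards FSK, against -0.62 for all assigned pairs, with AGTR1 (the angiotensin II receptor) at 27.4 over 2 pairs.

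Markers of other cell types gave these values, and their part in the results above was not tested. Endothelial genes had 9 private of 28 FSK peaks, over 8 of 13 genes, and 0 of 17 EZH2i peaks, which allows a share of up to 18.4% by the Wilson interval. The difference was 32.1 points (8.87 to 50.7), which includes the background of 13.0. At equal list length the endothelial counts were 6 of 19 and 4 of 17, a difference of 8.05 points (-20.7 to 34.5). Fibroblast genes had 6 of 29 and 4 of 27. Immune genes had 11 of 56 and 16 of 58, of which IKZF1, in the crowded region of chromosome 7, held 8 and 15. Chromaffin cell genes had 8 of 49 and 18 of 56, a difference of -15.8 points (-31.0 to 0.825), which like that of the Wnt targets lies below the background of 13.0. DDC, in the same crowded region, held 2 of 30 and 10 of 35. Without DDC in either list the counts were 6 of 19 and 8 of 21, a difference of -6.52 points (-33.1 to 21.8), which includes the background.

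**Figure D4:**
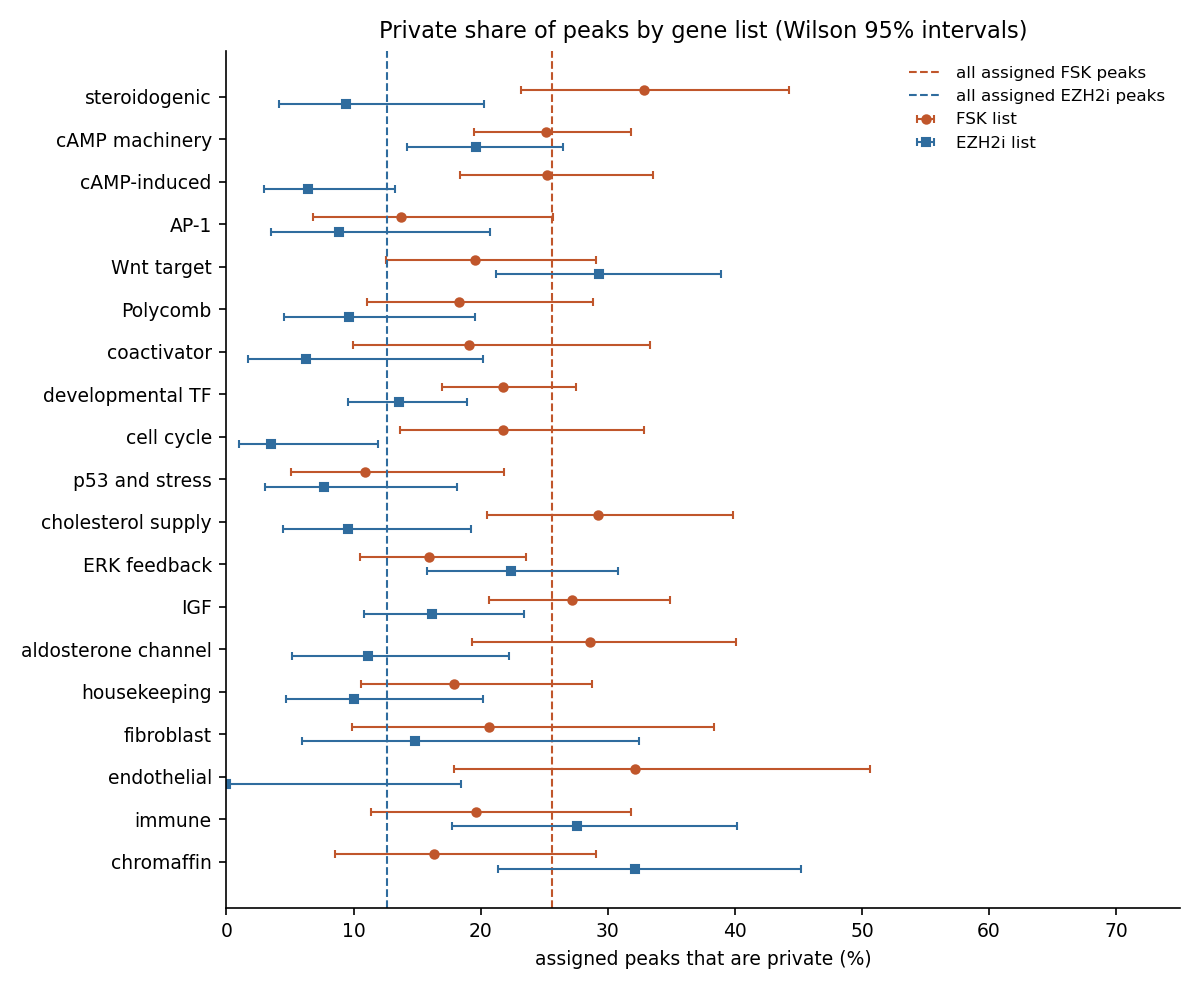
Share of assigned peaks that are private (%, horizontal axis) for 19 gene lists, with Wilson 95% intervals; dashed lines give the share over all assigned peaks, 25.6% for FSK and 12.6% for EZH2i. The EZH2i point lies to the right of the FSK point for Wnt target, ERK feedback, immune and chromaffin genes.

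Promoter sequence was read where a peak bears on it. RefSeq windows of 300 bases, from 250 before to 50 after the transcription start (GRCh38.p14, the coordinates of hg38), were found for 15812 of the 19821 genes and gave 20621 windows, which do not cover every chromosome. A window was covered where a peak overlapped it. In the FSK list only were 337 windows and in the EZH2i list only 364, and 208 and 228 genes (1.32% and 1.44%) had a window covered in that list and none in the other. The following 4 windows are a choice, made with their letters seen, from the 8 gene-list members with the largest covering peaks, 4 per list, whose window was covered in that list only. Of the other 4, CD68 holds 1 match and HOXA9, GATA2 and GSC hold none. Capitals mark matches to the cAMP response element, AP-1, SF1, TCF or GATA motifs spelled out below, and a match is a description of letters, not a binding site.
INHA: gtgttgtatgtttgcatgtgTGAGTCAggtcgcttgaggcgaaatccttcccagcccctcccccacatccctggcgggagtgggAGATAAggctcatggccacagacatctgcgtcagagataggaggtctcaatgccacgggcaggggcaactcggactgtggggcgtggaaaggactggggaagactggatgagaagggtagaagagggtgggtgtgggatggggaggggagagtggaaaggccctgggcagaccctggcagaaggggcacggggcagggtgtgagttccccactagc
MC2R: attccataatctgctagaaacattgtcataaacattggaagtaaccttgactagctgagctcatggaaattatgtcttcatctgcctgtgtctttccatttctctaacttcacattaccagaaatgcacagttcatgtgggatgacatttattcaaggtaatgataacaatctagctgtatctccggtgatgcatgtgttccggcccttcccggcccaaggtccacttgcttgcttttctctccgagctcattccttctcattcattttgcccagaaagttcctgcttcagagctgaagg
SP5: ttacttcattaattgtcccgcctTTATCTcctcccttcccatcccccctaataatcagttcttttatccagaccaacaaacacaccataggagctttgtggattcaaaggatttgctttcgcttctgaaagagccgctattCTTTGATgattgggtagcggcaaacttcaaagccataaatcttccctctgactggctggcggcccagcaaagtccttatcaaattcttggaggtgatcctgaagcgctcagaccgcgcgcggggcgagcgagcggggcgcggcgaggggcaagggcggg
HAND2: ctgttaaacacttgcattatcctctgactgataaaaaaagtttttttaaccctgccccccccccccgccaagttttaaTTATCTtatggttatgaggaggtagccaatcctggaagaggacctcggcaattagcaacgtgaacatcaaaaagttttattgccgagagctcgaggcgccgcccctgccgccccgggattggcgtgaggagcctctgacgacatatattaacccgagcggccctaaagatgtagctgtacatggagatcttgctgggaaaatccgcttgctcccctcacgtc
The INHA window, of inhibin α, an adrenal and gonadal secreted protein, lies at chr2:219572060-219572359 on the plus strand. It was covered by an FSK peak of area 1161 that was not private, since it met an EZH2i peak outside the window, and that was absent from the vehicle and CBPi lists. Its capitals are an AP-1 match at -230 and a GATA match at -166, counted from the start. The MC2R window at chr18:13915487-13915786, on the minus strand, lies under the FSK-private peak of area 460.9 and holds none of those 5 motifs. SP5, at chr2:170715087-170715386 on the plus strand under an EZH2i-private peak of area 280.1, has a TCF match at -109 and a GATA match at -227. HAND2, a chromaffin and heart factor, at chr4:173530180-173530479 on the minus strand under an EZH2i-private peak of area 497.8, has a GATA match. That HAND2 peak lay 122 bp from the nearest FSK peak, and HAND2 had a gene-end peak in both lists. The peaks over the SP5 and HAND2 windows were also in the vehicle and CBPi lists.

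Windows covered in the FSK list only held the AP-1 motif more often than those covered in the EZH2i list only. TGACTCA, or TGAGTCA on the other strand, was in 36 of 337 FSK-only windows (10.7%, 7.82 to 14.4) and in 8 of 364 EZH2i-only windows (2.20%, 1.12 to 4.28). The difference was 8.48 points (4.94 to 12.4). All windows gave 4.10%, those covered in both lists 2.69% and those covered in neither 6.07%. FSK-only windows are poorer in CpG, at a median of 13 against 19 in EZH2i-only windows, and AP-1 is commoner in CpG-poor windows. In windows with 0 to 9 CpG, 26 of 132 FSK-only (19.7%) and 3 of 103 EZH2i-only windows (2.91%) had a match, against 7.90% of all such windows. In those with 20 or more CpG it was 3 of 120 and 3 of 181. When the covering peak had to be private, 29 of 217 FSK-only windows (13.4%) and 4 of 260 EZH2i-only windows (1.54%) had a match.

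The FSK-only sites below, with 12 bases on either side, are shown for genes of known function; apart from INHA and CD68 they were chosen after their values were seen.
INHA: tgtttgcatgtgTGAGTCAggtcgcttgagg
CD68: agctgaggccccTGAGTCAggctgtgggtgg
CXCL8: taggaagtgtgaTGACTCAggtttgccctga
CYP19A1: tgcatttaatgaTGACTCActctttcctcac
GJA1: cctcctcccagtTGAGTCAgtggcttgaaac
CSF1R: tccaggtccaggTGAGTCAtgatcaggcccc
CD68 is a macrophage lysosomal protein, CXCL8 the chemokine interleukin-8, CYP19A1 aromatase, GJA1 the gap junction protein connexin 43, and CSF1R the receptor of macrophage colony-stimulating factor. The match lies at -100 in CD68 (chr17:7579388-7579687, plus strand), -137 in CXCL8 (chr4:73740319-73740618, plus), -49 in CYP19A1 (chr15:51243866-51244165, minus), -48 in GJA1 (chr6:121435396-121435695, plus) and -34 in CSF1R (chr5:150113316-150113615, minus). All but INHA were covered by an FSK-private peak, at areas from 260.8 (CSF1R) to 671.0 (CD68). The peaks at CYP19A1 and CSF1R were in neither the vehicle nor the CBPi list, that at GJA1 was in both, and those at CD68 and CXCL8 were in the CBPi list only.

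The SF1 motif differed in the same direction. AAGGTCA was searched on both strands like every other motif. It was in 17 of 337 FSK-only windows (5.04%, 3.17 to 7.93) and 3 of 364 EZH2i-only windows (0.824%, 0.281 to 2.40), against 3.21% of all windows. Of windows covered in neither list 4.90% held the motif, close to the FSK-only share, and of those covered in both 2.1%. In windows with 0 to 9 CpG the motif was in 10 of 132 (7.58%, 4.17 to 13.4) and 2 of 103 (1.94%, 0.534 to 6.81), where the intervals overlap, against 5.59% of all such windows. The complete cAMP response element TGACGTCA, the palindrome that CREB binds, was on the opposite side, in 4 FSK-only (1.19%, 0.462 to 3.01) and 13 EZH2i-only windows (3.57%, 2.10 to 6.01), against 2.25% of all. Those intervals overlap, and the element shares 5 letters, TGACG, with its shorter core, which was in 28.2% and 26.6%. Among the EZH2i-only windows, those of GLOD4 and MRM3 hold the same complete element read from opposite strands, and it was counted in both. The TCF motif CTTTGAT was in 7 and 9 windows, 2.08% and 2.47%, and the GATA motif AGATAA in 28 and 19, 8.31% and 5.22%. The GC box GGGCGG was in 48.4% and 52.7%, CCAAT in 27.9% and 28.6%, and the ETS motif CCGGAAGT in 12 and 13 windows. No overlap between different motifs was removed.

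**Figure D5:**
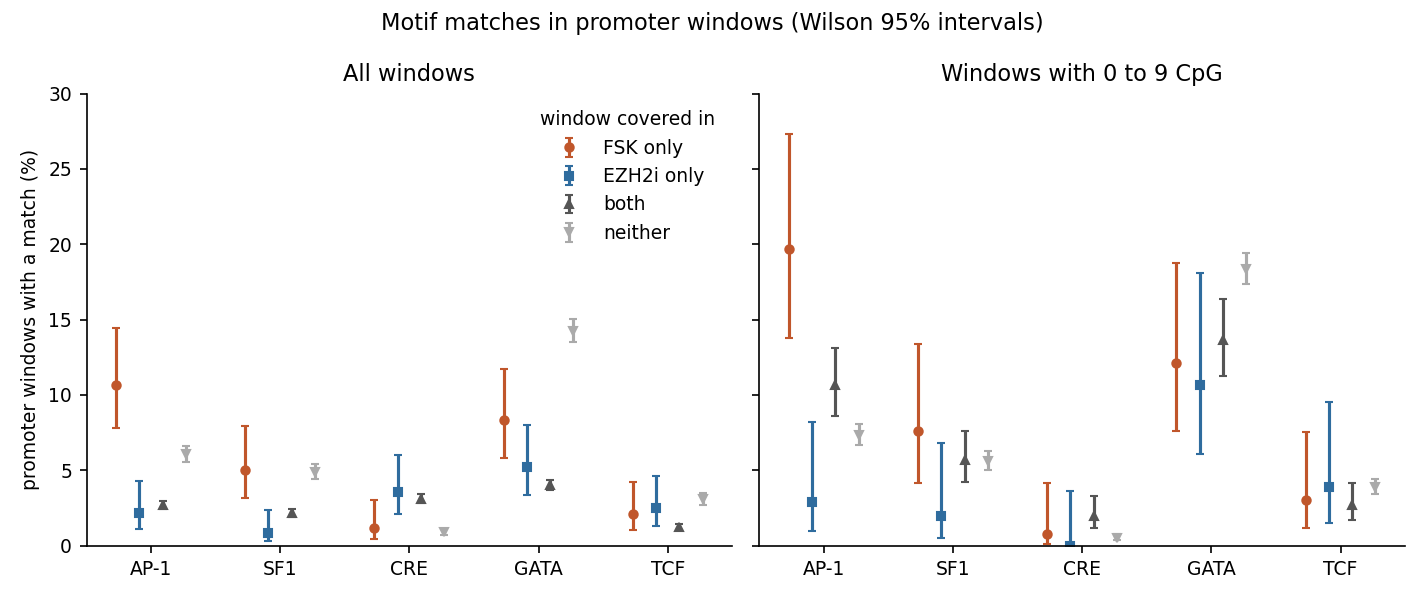
Share of RefSeq promoter windows with a motif match (%, vertical axis) for 5 motifs, by the list in which the window is covered, over all windows (left) and windows with 0 to 9 CpG (right), with Wilson 95% intervals. FSK-only windows stand highest for AP-1, at 10.7% of all windows and 19.7% of CpG-poor ones.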

How the data were processed

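Peak lists on hg38 were deposited as 1 narrowPeak table per group; the submitters' processing notes name Bowtie2, Genrich and deepTools 2.0 without roles or settings, and how replicates were pooled is not given in the sources used here. The deposited signal is the authors' area under each peak (at least 200.0 in both lists), beside a deposited −log10 p of the summit and a deposited score that matched 1000 times area over width, capped at 1000, within 1. Between the lists, areas were compared only as ranks, except in the alternative that cut both lists at an area of at least 400. Read depth is unknown. Overlaps, nearest genes, Wilson and Newcombe 95% intervals and Spearman's rho were computed with Python 3.11.15, NumPy 2.4.6, pandas 2.3.3 and SciPy 1.17.1, tested on simulated intervals and checked with bedtools 2.31.1. Genes came from RefSeq (GRCh38.p14, 19821 protein-coding); 153 that the table places on other than primary chromosome sequences were left out. That table gives no strand, so gene ends include 3′ ends. No promoter window lies on chromosome 8, so promoter and motif counts hold none of its genes.

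Members, gene lists and motifs were chosen with earlier results of these data known. The named items are the 8 largest private peaks per list, the 6 largest rank shifts each way, the 6 genes with most private peaks and the 6 with the largest excess, up to 4 members per gene list and 4 promoters per list; others are named with their values seen. All 447 genes of the 19 lists matched. Some genes, DUSP5 and ATF3 among them, belong to more than a single list, so the lists are not independent.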

Additional observations from a re-analysis of the deposited data

How the results depend on the processing

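The private counts depended on list length and overlap rule. FSK-private peaks numbered 8737 with lists of equal length, 3309 with 20000 peaks each, 8834 at an area of at least 400 and 2133 among the FSK peaks of above-median area. EZH2i-private peaks numbered 8738, 3309, 3224 and 453 in the same order, and 8600 when an overlap of 50% of both peaks was required. The gene-end share of FSK-private peaks was 7.80% with a 2 kb window, 3.87% at equal length and 8.17% with the 50% rule; for EZH2i it was 12.4% with 2 kb and 14.0% with the 50% rule. Genes with a gene-end peak in 1 list only numbered 189 (FSK) and 579 (EZH2i) at equal length, 208 and 228 by RefSeq promoter window, and 417 and 346 with a 2 kb window, so their order changed with list length and with the window. Spearman's rho was 0.737 by area over width, 0.805 by −log10 p, 0.803 over every overlapping pair and 0.916 over pairs of width within 1.5 times.

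The EZH2i-private share was above the FSK-private share in 4 of 19 gene lists, in 5 by gene body and 10 kb, and in 13 at equal length. Added after seeing the data, it was in 2 when the gene with most private peaks was left out separately in each peak list, and in 4 when 1 gene was left out of both. At equal length 9 differences of FSK minus EZH2i changed sign: developmental factors (-7.52 points), cholesterol supply (-1.38), IGF (-10.4), cAMP machinery (-9.36), AP-1 (-8.74), coactivator (-1.34), p53 and stress (-7.34), housekeeping (-9.91) and fibroblast genes (-16.0). Developmental factors also changed sign by gene body and 10 kb (-0.421). With 1 gene left out of both lists, ERK feedback (19.7), immune (16.2), Polycomb (-1.99) and p53 and stress genes (-2.08) changed sign; with genes left out separately, ERK feedback (2.04) and immune genes (16.2) did. The AP-1 difference was 16.8 points in windows with fewer than 10 CpG and 0.843 in those with 20 or more, also added after seeing the data. Of 41 alternative values for the main comparisons, 15 stayed within the limits set and 26 moved beyond them. A change of sign could be recorded only for the AP-1 motif difference, which kept its sign. Leaving out a replicate was not run, since each group is 1 pooled list. No paired analysis was possible because the lists carry no replicate numbers. Unknown depth limits every count of private peaks.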
